A study of Mus musculus with 6 samples.

Results

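The Toll-like receptors are the 10 genes Tlr1, Tlr2, Tlr3, Tlr4, Tlr5, Tlr6, Tlr7, Tlr8, Tlr9 and Tlr13, taken by their symbols from the 17092 genes of an RNA-seq count table. Tlr11 and Tlr12, the other members of the mouse family, are not analysed here. The table covers mouse embryonic fibroblasts (MEFs) from wild-type (WT) mice and from Aff3ir-ORF2-/- mice, with 3 libraries of each genotype and no further treatment named in the labels. Aff3ir-ORF2 is a product of Aff3ir, a gene nested in an intron of Aff3, and the knockout was made with CRISPR/Cas9 in fertilised eggs and bred to homozygosity, so every cell type of the embryo carries it. The strain and the age of the embryos are not given for these libraries in the sources used here. No embryo or culture is named for any library, so the p-values below measure only the spread between these libraries, which may be technical.

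Toll-like receptors bind molecules of microbes and of damaged cells and pass the signal on through adaptor proteins with a TIR domain to NF-κB and to interferon regulatory factors. Tlr1, Tlr2, Tlr4, Tlr5 and Tlr6 act at the cell surface, where Tlr2 pairs with Tlr1 or Tlr6 to bind lipopeptides, Tlr4 binds lipopolysaccharide and Tlr5 binds flagellin. Tlr3, Tlr7, Tlr8, Tlr9 and Tlr13 act in endosomes and bind nucleic acids. Fibroblasts carry some of these receptors, and macrophages and dendritic cells carry most of them.

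The libraries held 17435133 to 18252330 counts each, so 3 counts stand for 0.161 to 0.174 CPM (counts per 1000000 counts, scaled for composition). No row for Aff3ir was analysed, so the deletion itself was not checked. Aff3, the gene around it, had 406, 406 and 418 counts in WT against 229, 186 and 209 in Aff3ir-ORF2-/- libraries, and was lower by edgeR's quasi-likelihood test (log2 fold change -1.06 ± 0.09 (SE), adjusted p = 1.23e-05). The chi-square per degree of freedom between libraries was 1.38 to 1.71 within WT, 5.56 between Aff3ir-ORF2-/- replicates 1 and 3, and 14.9 and 18.9 between replicate 2 and these, so replicate 2 stood apart. The fibroblast marker list summed to 18300 to 18443 CPM in WT, to 14082 and 13168 CPM in Aff3ir-ORF2-/- replicates 1 and 3, and to 18388 CPM in replicate 2. Collagens Col1a1 and Col1a2 had at least 61341 counts in every library.

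Of the 10 receptors, 8 had enough counts for the test, 7 of these were higher in Aff3ir-ORF2-/- MEFs and 0 were lower by edgeR. Here a gene was called at an adjusted p under 0.05 together with a change of at least 1.5-fold. With the same fold limit DESeq2, limma voom and edgeR's unadjusted p under 0.05 also gave 0 lower, and without it 1 receptor, Tlr5, was lower at an unadjusted p under 0.05, as were 29.9% of all genes. Across all 13075 genes tested, 14.2% were called higher and 7.27% lower. Tlr8 and Tlr13 passed the filter on low counts only through the Aff3ir-ORF2-/- libraries, so their place among the tested genes was fixed by their being high there. The same 7 receptors were called without Aff3ir-ORF2-/- replicate 2. Tlr1 and Tlr9 stayed below the filter, and Tlr5 was the receptor with lower values in Aff3ir-ORF2-/- MEFs. The counts of all 10 receptors together came to 36.3 to 38.7 CPM in WT and 94.8 to 131 CPM in Aff3ir-ORF2-/- libraries.

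**Figure D1:**
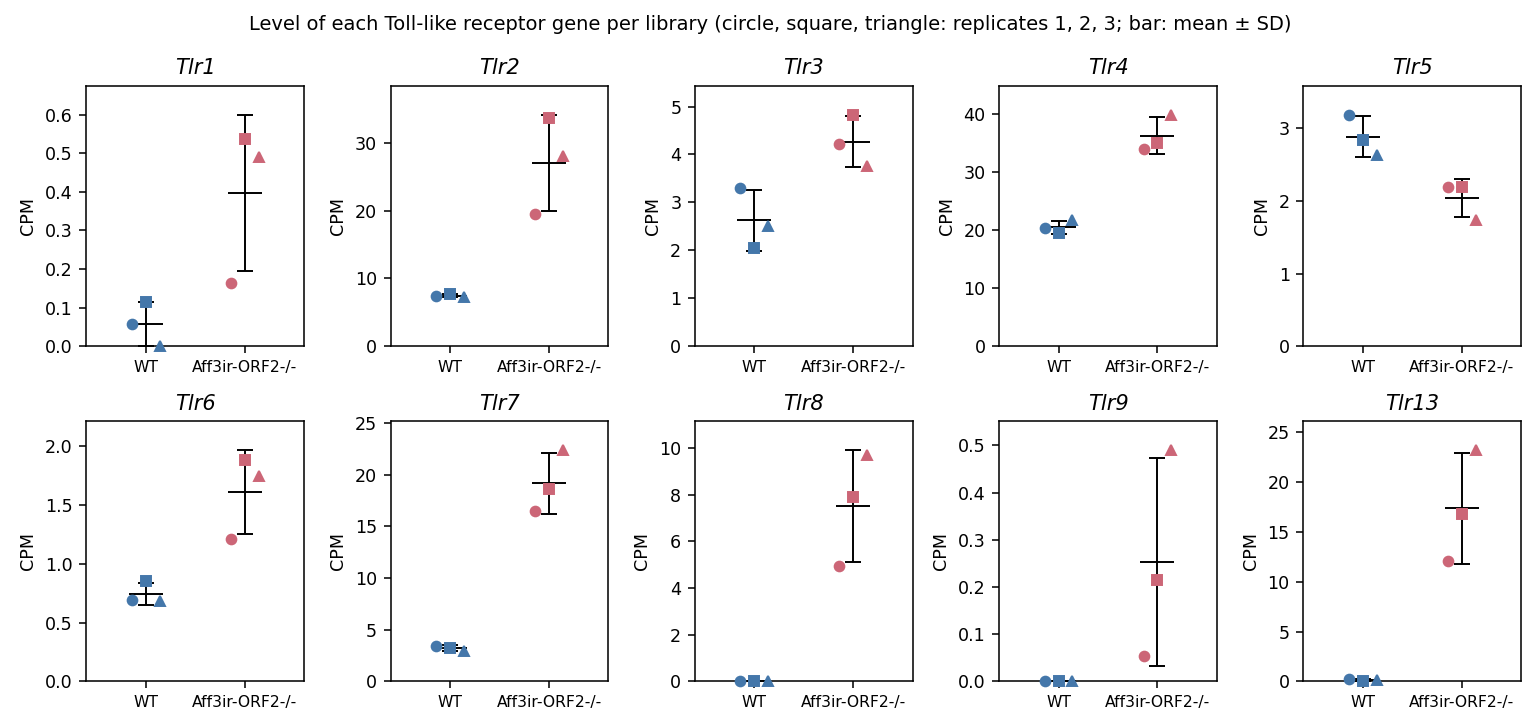
CPM of each receptor (vertical axes, each from 0 with its own scale) in the 3 WT and 3 Aff3ir-ORF2-/- libraries, with points for libraries and black bars for mean ± SD. In Tlr2, Tlr3, Tlr4, Tlr6, Tlr7, Tlr8 and Tlr13 every Aff3ir-ORF2-/- library lies above every WT library, in Tlr5 every one lies below, and Tlr1 and Tlr9 stay under 1 CPM throughout.

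Among the surface receptors, Tlr4 had the most counts in every library. It held 352, 342 and 379 counts in WT against 618, 652 and 732 in Aff3ir-ORF2-/- libraries. The groups did not overlap, as for 66.0% of all tested genes in either direction, and every Aff3ir-ORF2-/- library lay above every WT library, as for 33.3%. The mean level was 20.5 ± 1.12 CPM (SD, n = 3) in WT and 36.3 ± 3.18 CPM (SD, n = 3) in Aff3ir-ORF2-/- MEFs, and edgeR gave a log2 fold change of 0.82 ± 0.08 (SE, 95% interval 0.65 to 1.00, adjusted p = 2.42e-05). Ninj1, Dlk1, Cyth1, Stxbp2 and Nceh1 had the profiles closest to Tlr4 over the 6 libraries, at Euclidean distances of 0.103 to 0.136 between centred log2 CPM values, and their log2 fold changes were 0.74 to 0.84.

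Tlr2, the shared partner of Tlr1 and Tlr6, rose more. It had 127, 136 and 127 counts in WT against 356, 627 and 514 in Aff3ir-ORF2-/- libraries. WT libraries were close together at 7.45 ± 0.246 CPM (SD, n = 3), while the Aff3ir-ORF2-/- libraries ranged widely around 27.1 ± 7.10 CPM (SD, n = 3), with replicate 1 the lowest. The fold change was 3.63 and the log2 fold change 1.86 ± 0.21 (SE, edgeR adjusted p = 2.84e-04).

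The partners of Tlr2 were low in both genotypes. Tlr6 had 12, 15 and 12 counts in WT against 22, 35 and 32 in Aff3ir-ORF2-/- libraries, and its log2 fold change was 1.10 ± 0.28 (SE, edgeR adjusted p = 0.00746). Against a null of 1.5-fold instead of no change, its adjusted p was 0.115. Tlr1 had 1, 2 and 0 counts in WT against 3, 10 and 9 in Aff3ir-ORF2-/- libraries. Its summed counts, 3 against 22, gave a ratio of 6.95 with an exact 95% counting interval of 2.09 to 36.3, which covers counting error only. Tlr1 and Tlr6 lie next to each other on chromosome 5 and are close paralogues, and each had non-whole values in 2 of 6 libraries in the deposited table, so reads may have been divided between similar sequences.

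Tlr5 had 55, 50 and 46 counts in WT against 40, 41 and 32 in Aff3ir-ORF2-/- libraries. Every Aff3ir-ORF2-/- library lay below every WT library, as for 32.7% of all tested genes, and its log2 fold change was -0.50 ± 0.19 (SE, 95% interval -0.92 to -0.08, edgeR adjusted p = 0.0456). The change was smaller than 1.5-fold, so Tlr5 was not called.

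Tlr7, Tlr8 and Tlr13, all endosomal, had the largest fold changes of the 8 tested receptors. Tlr7, a receptor for single-stranded RNA, had 60, 57 and 52 counts in WT against 301, 347 and 411 in Aff3ir-ORF2-/- libraries. Its level rose 5.93-fold, from 3.23 ± 0.252 to 19.2 ± 2.97 CPM (SD, n = 3), with a log2 fold change of 2.57 ± 0.14 (SE, edgeR adjusted p = 1.34e-06). Its deposited values were non-whole in 6 of 6 libraries, so its counts are estimates.

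Tlr8 was at 0 counts in every WT library and had 90, 147 and 178 counts in Aff3ir-ORF2-/- libraries. Counted against 3 counts per WT library, it was at least 43.6-fold higher (edgeR adjusted p = 1.49e-04). Tlr13, a receptor for bacterial ribosomal RNA, had 4, 1 and 3 counts in WT against 220, 313 and 425 in Aff3ir-ORF2-/- libraries. The ratio of its summed counts, 958 to 8, was 113 with an exact 95% counting interval of 57.3 to 264, and its log2 fold change was 6.76 ± 0.46 (SE, edgeR adjusted p = 2.29e-05). For both genes replicate 1 was the lowest and replicate 3 the highest of the Aff3ir-ORF2-/- libraries.

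Tlr3, which binds double-stranded RNA, had the smallest log2 fold change among the receptors called higher with all libraries in the fit. Its order against Tlr4 turned without WT replicate 1 (0.90 for Tlr3 and 0.82 for Tlr4) and without Aff3ir-ORF2-/- replicate 3 (0.79 and 0.75). Tlr3 had 57, 36 and 44 counts in WT against 77, 90 and 69 in Aff3ir-ORF2-/- libraries, with no overlap and a log2 fold change of 0.70 ± 0.20 (SE, 95% interval 0.25 to 1.15, edgeR adjusted p = 0.0137). The call was lost without WT replicate 2 (log2 fold change 0.55, edgeR adjusted p = 0.0609) and without WT replicate 3 (0.67, adjusted p = 0.0529). Tlr9, the receptor for unmethylated CpG DNA, had 0 counts in each WT library and 1, 4 and 9 counts in Aff3ir-ORF2-/- libraries, too few for a test.

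**Figure D2:**
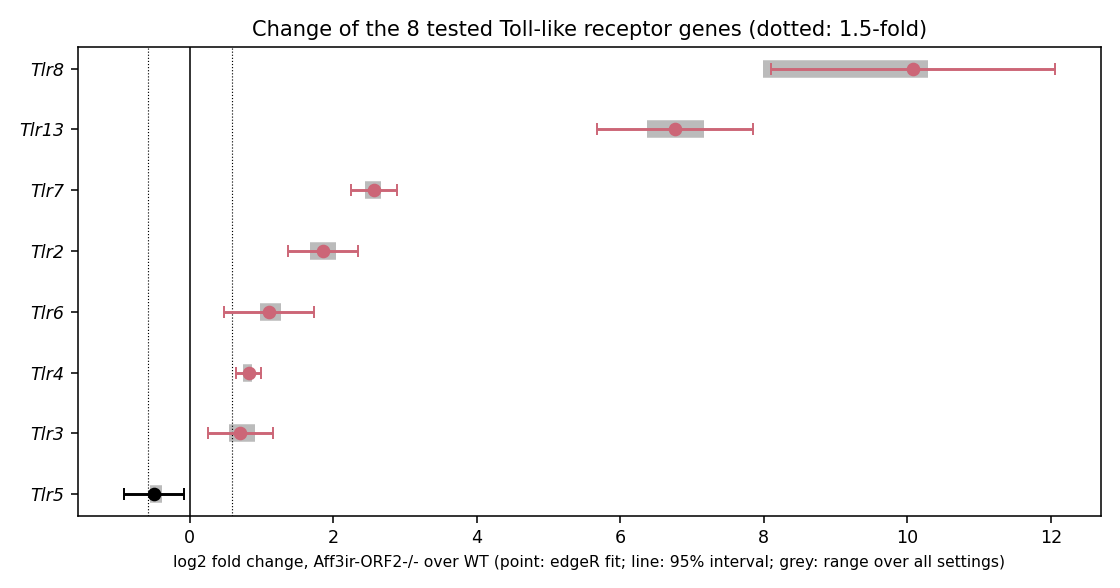
Log2 fold change of Aff3ir-ORF2-/- over WT (horizontal axis) for the 8 tested receptors, with points and 95% intervals from edgeR, grey bars for the range over the alternative settings and dotted lines at 1.5-fold. Points run from -0.50 for Tlr5 to the fitted value of Tlr8, whose size depends on a prior count because WT libraries hold 0 counts, and every grey bar stays on the side of 0 of its point.

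Per kilobase of transcript the order of the receptors differed between the genotypes. In WT, Tlr4 stood first at a level of 5.03 CPM per kb and Tlr2 next at 2.47, both apart from the rest. Tlr7 at 0.829, Tlr5 at 0.756 and Tlr3 at 0.595 CPM per kb followed, and the WT libraries of Tlr7 overlapped those of Tlr5, and those of Tlr5 overlapped those of Tlr3. Tlr6 had 0.203 CPM per kb, Tlr13 0.0378 and Tlr1 0.0189, of which Tlr13 and Tlr1 overlapped. In Aff3ir-ORF2-/- MEFs, Tlr2 at 8.98 and Tlr4 at 8.89 CPM per kb overlapped, as did Tlr7 at 4.92 and Tlr13 at 4.27. Tlr8 stood below these at 2.19 CPM per kb and above Tlr3 at 0.969. Tlr5 at 0.536 and Tlr6 at 0.438 CPM per kb overlapped, and Tlr1 at 0.131 overlapped Tlr9 at 0.0728. In differences of mean CPM, not per length, Tlr2 gained 19.6, Tlr13 17.2, Tlr7 15.9 and Tlr4 15.7 CPM.

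The promoters of the receptors at 4 counts or fewer in every WT library, Tlr1, Tlr8, Tlr9 and Tlr13, are shown because these members were nearly or fully undetected in WT. Each is the 250 bases before the annotated start, from RefSeq on build GRCm38.p6, at chr5:64933559-64933808 on the minus strand for Tlr1, chrX:167264330-167264579 on the minus strand for Tlr8, chr9:106222348-106222597 on the plus strand for Tlr9 and chrX:106143025-106143274 on the plus strand for Tlr13. Capitals mark GAGGAA, the core of the PU.1 motif, on either strand, as well as TGANTCA (AP-1) in Tlr9 and TATAAA in Tlr8, where copies on both strands overlap.
Tlr1: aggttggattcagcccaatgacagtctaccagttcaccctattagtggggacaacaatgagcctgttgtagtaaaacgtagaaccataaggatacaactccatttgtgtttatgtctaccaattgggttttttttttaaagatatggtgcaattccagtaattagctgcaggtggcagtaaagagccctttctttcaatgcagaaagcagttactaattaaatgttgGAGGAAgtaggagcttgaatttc
Tlr8: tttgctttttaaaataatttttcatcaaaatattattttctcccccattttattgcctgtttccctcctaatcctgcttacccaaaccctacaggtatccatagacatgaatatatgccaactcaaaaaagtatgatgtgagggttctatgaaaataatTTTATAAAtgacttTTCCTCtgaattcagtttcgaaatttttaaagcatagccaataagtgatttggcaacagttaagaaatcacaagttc
Tlr9: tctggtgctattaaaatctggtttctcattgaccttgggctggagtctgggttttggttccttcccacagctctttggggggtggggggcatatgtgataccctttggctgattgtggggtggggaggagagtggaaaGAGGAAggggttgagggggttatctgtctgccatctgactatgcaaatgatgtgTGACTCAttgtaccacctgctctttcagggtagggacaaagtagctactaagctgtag
Tlr13: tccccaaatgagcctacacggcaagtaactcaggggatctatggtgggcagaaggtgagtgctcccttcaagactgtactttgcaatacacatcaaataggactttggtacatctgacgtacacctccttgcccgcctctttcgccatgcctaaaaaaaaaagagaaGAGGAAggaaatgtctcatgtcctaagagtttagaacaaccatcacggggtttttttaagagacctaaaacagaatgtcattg

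GAGGAA begins at position -23 from the start in Tlr1, -77 in Tlr8, -112 in Tlr9 and -83 in Tlr13. It occurs in 23.3% of the 32851 mouse windows of this length, and in none of the windows of Tlr2, Tlr3, Tlr5 and Tlr6. Tlr1 has another annotated start, whose window holds none of the 5 motifs searched. An interferon regulatory factor motif, GAAA and again GAAA after any 2 bases, is found in 2.98% of windows and occurs in a window of Tlr6. An NF-κB motif, GGGA and TTTCC with any 1 base between, is found in 0.356% and occurs in that of Tlr3. TGANTCA is found in 6.75% and TATAAA in 12.4%, the latter also in a window of Tlr6. Both strands were searched. For both windows of Tlr6, unlike those of the other members, the first 30 bases after the start were not found in a GENCODE transcript of the gene, so its start is uncertain. These are matches of letters and were not tested as binding sites. The promoters shown were picked by their WT counts, so GAGGAA in these and not in the other windows is a description only. Windows for Tlr4 and Tlr7 were not used here.

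Tlr7 and Tlr8 are neighbours on chromosome X, and Tlr13 is on the same chromosome. Y-linked genes were detected in all 6 libraries, and of 4 tested, Ddx3y, Uty and Eif2s3y were called higher in Aff3ir-ORF2-/- MEFs with log2 fold changes of 0.61, 0.62 and 0.81. Their part in the results for the X-linked receptors was not tested.

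Markers of macrophages were also higher in Aff3ir-ORF2-/- MEFs. Of 20 markers on the list 19 were tested and all 19 were called higher. Of these, 12 reached the filter's cutoff in fewer than 3 WT libraries, so that they passed only with the help of Aff3ir-ORF2-/- libraries and the filter favoured a higher level there, and the other 7 were called higher as well. For all 19, the list's median log2 fold change was 6.33, against 0.01 over all tested genes, and for those 7 it was 4.95. Setting the markers at or under 3 counts in each WT library to that bound gave 6.27. Their summed level was 23.4 to 26.9 CPM in WT and 1284, 1789 and 2215 CPM in Aff3ir-ORF2-/- replicates 1, 2 and 3. C1qa, C1qb, Fcgr1 and Aif1 were at 0 in all WT libraries, whereas Csf1r, the receptor that macrophages need to survive, had 43, 42 and 48 counts in WT against 637, 979 and 1185 in Aff3ir-ORF2-/- libraries. In bulk RNA, fewer cells of a type and less RNA per cell cannot be told apart. The part of these markers in the receptor results was not tested.

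Within Aff3ir-ORF2-/- libraries, Tlr4, Tlr7, Tlr8 and Tlr13 rose in CPM from replicate 1 to replicate 3, as the macrophage markers did. Tlr2 and Tlr6 were highest in replicate 2, and Tlr3 and Tlr5 were lowest in replicate 3. Tlr8 had 3.85, 4.41 and 4.38 counts per 1000 macrophage marker counts in replicates 1, 2 and 3, so its highest library was 1.15 times its lowest on this scale and 1.96 times in CPM. Tlr13 had 9.40, 9.38 and 10.5 counts per 1000 marker counts, a spread of 1.11 times against 1.92 in CPM. In WT, where Tlr13 rested on 8 counts in all, the same measure was 9.93, 2.11 and 6.90.

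Tlr7, at 12.9, 10.4 and 10.1 counts per 1000 marker counts, spread by 1.27 times on this scale and by 1.36 in CPM. Tlr2 spread by 1.49 times per marker count and 1.72 in CPM, and Tlr6 by 1.33 and 1.56. For these 5 receptors the spread was smaller per marker count than in CPM. For Tlr4 it was larger, at 1.47 times per marker count and 1.18 in CPM, as it was for Tlr3 at 1.94 and 1.28 and for Tlr5 at 2.17 and 1.26. Tlr4 went from 873, 723 and 871 counts per 1000 marker counts in WT to 26.4, 19.5 and 18.0 in Aff3ir-ORF2-/- libraries. This drop comes from the denominator, as the marker sum rose far more between the genotypes than Tlr4, which was itself higher. With 3 libraries these spreads are a description, with no test.

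**Figure D3:**
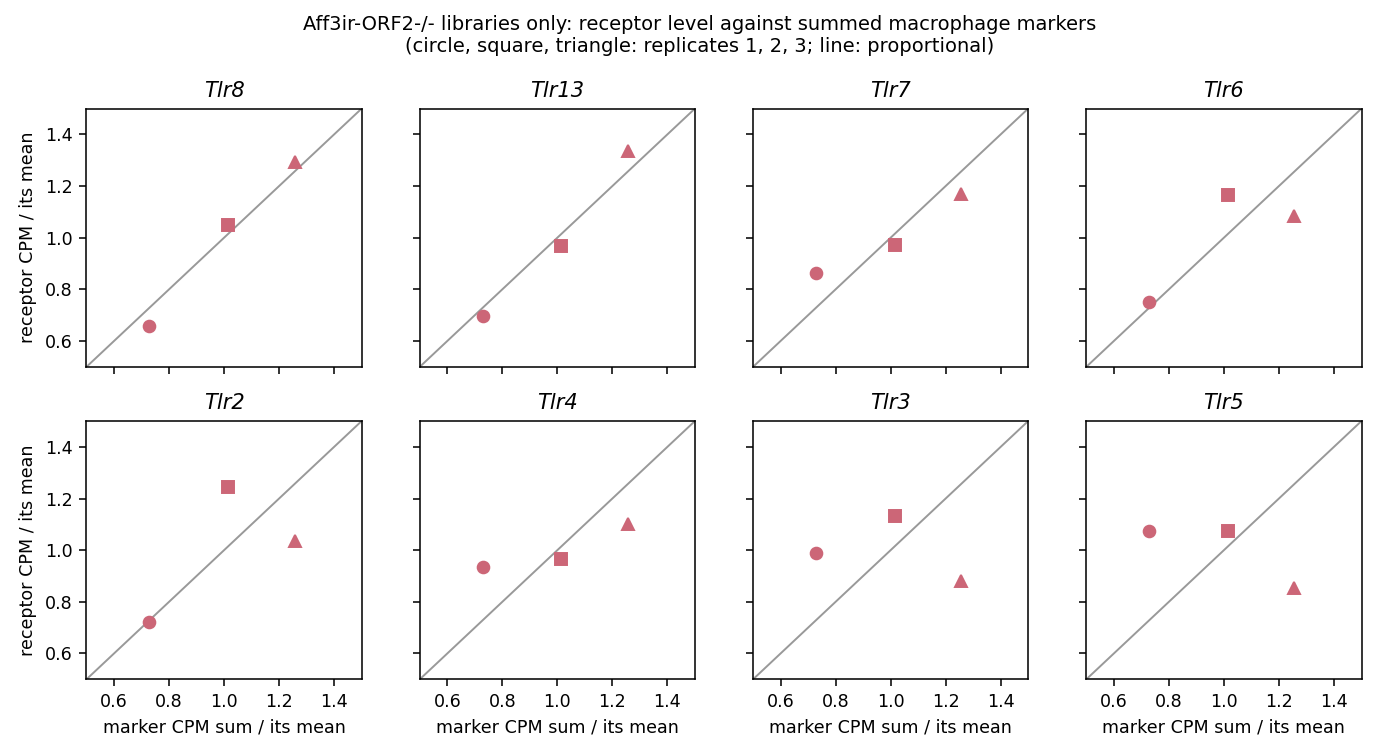
CPM of each tested receptor in the 3 Aff3ir-ORF2-/- libraries (vertical axis, as a share of its mean over them) against the summed CPM of the macrophage markers (horizontal axis, likewise), with a line where both scale together. Tlr8 and Tlr13 lie near the line, from 0.66 and 0.70 of their means in replicate 1 to 1.29 and 1.34 in replicate 3, while Tlr3 and Tlr5 are lowest in replicate 3, where the markers are highest.

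Markers of other immune cells were scarce. Dendritic cell markers summed to 2.05 to 3.03 CPM in WT and 4.61 to 5.07 CPM in Aff3ir-ORF2-/- libraries, with Flt3, Clec9a and Batf3 at 3 counts or fewer in every library. Zbtb46, the 1 dendritic cell marker tested, was called higher with 40, 34 and 44 counts in WT against 59, 64 and 65 (log2 fold change 0.59 ± 0.17 (SE), edgeR adjusted p = 0.0154), and Itgax, not tested, had 0, 0 and 1 against 15, 10 and 16. Neutrophil and mast cell markers summed to 0.398 to 0.696 and 1.18 to 1.58 CPM, with Ly6g and Cpa3 at 1 count or fewer in every library. S100a8, the 1 tested, was called higher and passed the filter only with the help of Aff3ir-ORF2-/- libraries. B and T cell markers summed to 1.04 to 1.54 and 0.980 to 1.56 CPM, with Cd79a, Pax5 and Cd4 at 3 counts or fewer. Of 6 endothelial markers tested, Vwf, Erg and Kdr were called higher and Cdh5 lower, while Pecam1 had 2 to 5 counts in each library. Erg passed the filter only with the help of Aff3ir-ORF2-/- libraries. Of the 5 markers that reached its cutoff in all WT libraries, 2 (40%) were called higher, against 11.0% of all such genes. Cdh5 reached the cutoff in fewer than 3 Aff3ir-ORF2-/- libraries, so the filter favoured a lower level there. Of 10 fibroblast markers tested, Lum and Pdgfrb (20%) were called higher, near the 14.2% of all genes tested, and 0 lower, against 7.27%. Col1a1 and Col1a2 were, however, lower at an unadjusted edgeR p of 0.00544 and 0.0196 with changes under 1.5-fold. Of the 7 epithelial markers the 1 tested was not called. Cldn4, not tested, had 1, 1 and 0 counts in WT against 16, 6 and 21 in Aff3ir-ORF2-/- libraries. The part of all these other markers in the receptor results was not tested.

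Other genes of the pathway were read from 9 lists. Of 151 genes listed, 135 were tested, 49 of these (36.3%) were called higher and 12 (8.89%) lower, against 14.2% and 7.27% of all genes tested. Of the 135, 28 reached the filter's cutoff in fewer than 3 WT libraries and so passed only with the help of Aff3ir-ORF2-/- libraries, among them Cd180, Ticam2, Btk, Tnf, Nlrc4 and Cd300a. The filter favoured a higher level there for these genes, of which 27 were called higher (96.4%), against 485 of 697 such genes in the whole table (69.6%), so the share of 36.3% rests in part on the filter. Of the other 107, 22 were called higher (20.6%), against 1366 of 12378 in the whole table (11.0%). The genes that passed with this help made up 4 of the 7 calls higher among co-receptors, 1 of 6 for folding, transport and cleavage, 2 of 3 among adaptors, 1 of 4 among kinases and ligases, 1 of 3 among transcription factors, 6 of 12 among induced genes and 1 of 2 among endogenous ligands. Likewise 4 of the 12 calls lower, Sarm1, Cxcl10, Ccl5 and Csf3, were of genes that reached the cutoff in fewer than 3 Aff3ir-ORF2-/- libraries, so that the filter favoured a lower level there. Of the 129 genes that reached it in all 3, 8 were called lower (6.20%), against 850 of 12696 in the whole table (6.70%). The median log2 fold change of all tested genes was 0.01. Genes that macrophages express strongly are on several of these lists, and the part of the macrophage markers in the counts below was not tested. For the 3 lists with 0 lower by edgeR, DESeq2, limma voom and edgeR's unadjusted p under 0.05 also gave 0 with the 1.5-fold limit. Without that limit, genes lower at an unadjusted p under 0.05 numbered 0 of 10 co-receptors, 8 of 23 kinases and ligases and 2 of 15 other innate sensors, against 29.9% of all genes tested.

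Co-receptors and ligand-delivery proteins gave 7 higher and 0 lower of 10 tested. Their median log2 fold change was 3.51, and 2.74 over the 5 that reached the filter's cutoff in all 3 WT libraries. Cd14, which hands lipopolysaccharide to Tlr4, rose from 52, 47 and 42 counts in WT to 242, 299 and 458 in Aff3ir-ORF2-/- libraries (log2 fold change 2.74 ± 0.28 (SE), edgeR adjusted p = 1.92e-04). Cd36, a scavenger receptor that works with Tlr2 and Tlr6, had 3, 5 and 1 counts in WT against 670, 686 and 1115 in Aff3ir-ORF2-/- libraries. Itgam and Itgb2, the chains of the integrin Mac-1, Clec7a, a β-glucan receptor, Cd180 and Lbp were the other genes called higher. Ly96, the MD-2 subunit without which Tlr4 does not bind lipopolysaccharide, had 46, 43 and 41 counts in WT against 76, 59 and 64 in Aff3ir-ORF2-/- libraries. Its log2 fold change of 0.54 ± 0.18 (SE, edgeR adjusted p = 0.0256) was under 1.5-fold and not called. Rftn1 was not called either, at -0.12.

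Among 16 tested genes for folding, transport and cleavage of the receptors, 6 were called higher and 1 lower, with a median log2 fold change of 0.25. Unc93b1, which carries the endosomal receptors out of the endoplasmic reticulum, had 203, 185 and 200 counts in WT against 313, 446 and 417 in Aff3ir-ORF2-/- libraries (log2 fold change 0.92 ± 0.13 (SE), edgeR adjusted p = 2.44e-04). The cathepsin Ctss rose most on this list, from 14, 20 and 12 counts to 2362, 3151 and 3462. The proteases Lgmn and Ctsb rose by log2 fold changes of 1.58 and 1.02, and the endolysosomal transporters Slc15a3 and Slc15a4 by 5.32 and 0.59. The chaperones of receptor folding, Hsp90b1 and Cnpy3, were not called, with log2 fold changes of 0.32 and 0.10, nor was the protease Ctsl at 0.28. Rab11fip2 was called lower at -0.59, at the edge of the 1.5-fold limit.

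Of the 6 TIR-domain adaptors and related proteins, all tested, 3 were called higher and 1 lower, with a median log2 fold change of 0.69, and of 0.32 over the 4 that reached the filter's cutoff in all WT libraries. Myd88, the adaptor of nearly all the receptors, had 455, 474 and 458 counts in WT against 580, 679 and 620 in Aff3ir-ORF2-/- libraries, a log2 fold change of 0.36 ± 0.07 (SE, edgeR adjusted p = 0.00121) that was under 1.5-fold. Tirap, which bridges Myd88 to Tlr2 and Tlr4, was not called at 0.29. Ticam1 (TRIF), the adaptor of Tlr3 and of endosomal Tlr4, rose from 136, 127 and 125 counts to 271, 312 and 246 (log2 fold change 1.02 ± 0.11 (SE), edgeR adjusted p = 4.57e-05). Ticam2 (TRAM), which joins Tlr4 to TRIF, had 1, 1 and 0 counts in WT against 25, 43 and 35 in Aff3ir-ORF2-/- libraries. Pik3ap1 rose by a log2 fold change of 4.96. Sarm1, a TIR protein with NADase activity, fell from 12, 16 and 10 counts to 5, 6 and 7 (edgeR adjusted p = 0.0262), and was not called without WT replicate 1, WT replicate 2 or Aff3ir-ORF2-/- replicate 1, nor with DESeq2, limma voom or the test against 1.5-fold.

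Of 23 kinases and ubiquitin ligases tested, which act below the adaptors, 4 (17.4%) were called higher, near the 14.2% of all genes, and 0 lower, with a median log2 fold change of 0.10. Those called were Btk, a kinase of haematopoietic cells, Syk, Ikbke and Peli3, with log2 fold changes of 6.13, 0.84, 1.17 and 1.41. Syk had 387, 386 and 385 counts in WT. Irak1, Irak4 and Traf6, which relay the signal from Myd88, had log2 fold changes of -0.18, 0.25 and -0.29 and were not called. Further down, the kinase Map3k7 (TAK1) and its partner Tab2 were at -0.12 and -0.0047, Ikbkg (NEMO), Ripk1 and Ube2v1 were at 0.29, 0.31 and 0.10, and none of these 5 was called.

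Inhibitors of the pathway gave 4 higher (20%) and 1 lower of 20 tested, against 14.2% and 7.27% of all genes tested. Their median log2 fold change was 0.14. All 4 called higher passed the filter only with the help of Aff3ir-ORF2-/- libraries, 0 of the other 16 were called higher, and 0 inhibitors were called higher where every library had to hold at least 10 counts. Inpp5d, Cd300a and Lilrb4a, which act in immune receptor signalling of myeloid cells, and Tnip3 rose by log2 fold changes of 6.47, 7.38, 7.01 and 4.51. Tnfaip3 (A20), a deubiquitinase that ends NF-κB signalling, fell from 530, 490 and 512 counts to 254, 224 and 305 (log2 fold change -1.05 ± 0.11 (SE), edgeR adjusted p = 4.00e-05). Tollip and Irak3 were not called, at 0.10 and -0.30, nor were Tnip1 at 0.54, Il1rl1 at -0.46 and Otud7b at 0.15.

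Of 11 transcription factors tested, 3 (27.3%) were called higher and 1 lower, against 14.2% and 7.27% of all genes tested. Their median log2 fold change was 0.12. Of the 10 that reached the filter's cutoff in all WT libraries, 2 (20%) were called higher, against 11.0% of all such genes. Irf8, a factor of myeloid cells, had 2, 4 and 0 counts in WT against 82, 125 and 153 in Aff3ir-ORF2-/- libraries. Irf5, which acts below Myd88, rose from 49, 46 and 31 counts to 87, 90 and 126 (log2 fold change 1.19 ± 0.22 (SE), edgeR adjusted p = 0.00132). Irf1 rose by a log2 fold change of 1.09. Nfkbiz, an NF-κB cofactor, fell from 1849, 2023 and 1783 counts to 1012, 1092 and 1059 (log2 fold change -0.92 ± 0.05 (SE), edgeR adjusted p = 2.00e-06). The NF-κB subunits Rela, Nfkb1, Nfkb2 and Relb were not called, at 0.10, 0.06, 0.53 and 0.41.

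Genes that the receptors induce went both ways, with 12 higher and 7 lower of 24 tested. The median log2 fold change was 0.50, and -0.04 over the 18 that reached the filter's cutoff in all WT libraries, of which 6 were called higher and 7 lower. Tnf had 0 counts in each WT library and 30, 35 and 67 in Aff3ir-ORF2-/- libraries, at least 13.9-fold higher against 3 counts per library. Il6 rose from 40, 40 and 29 counts to 113, 101 and 152, and Icam1, a leukocyte adhesion molecule, from 67, 68 and 65 to 378, 549 and 532. The chemokines Ccl3 and Ccl2 rose by log2 fold changes of 5.88 and 0.64, and Acod1, which makes itaconate, by 2.91, while Ccl7 was not called at 0.37. Cxcl10, an interferon-induced chemokine, fell from 49, 61 and 63 counts to 11, 7 and 18 (log2 fold change -2.33 ± 0.29 (SE), edgeR adjusted p = 1.28e-04). Ccl5, Csf3, Zfp36, Ptgs2, Ifit1 and Cxcl1 also fell, with log2 fold changes of -2.08, -1.61, -1.41, -1.13, -0.92 and -0.76. Cxcl2 and Ifit3 went the other way and were called higher, at 2.39 and 0.94. Lif, Saa3, Lcn2 and Marco were the remaining genes called higher, at 0.85, 1.01, 2.38 and 2.29. Il1b, Il12a, Il12b, Il10 and Csf2 had 8 counts or fewer in every library.

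Innate sensors outside the family gave 8 higher and 0 lower of 15 tested. The median log2 fold change was 1.34, and -0.04 over the 8 that reached the filter's cutoff in all WT libraries. Of the 8 called, 7 passed the filter only with the help of Aff3ir-ORF2-/- libraries, and of the 8 sensors that did not need it 1 (12.5%), Nod1, was called higher, near the 11.0% of all such genes. Of all 15, 10 were called higher with upper quartile scaling or total counts. With each library left out the filter was applied anew, so the genes tested can differ, and 8 to 10 of the list were called higher. Nod1, a sensor of peptidoglycan that fibroblasts carry, rose from 141, 135 and 133 counts to 337, 358 and 400. Msr1, Clec4d, Clec4n and Clec4e, receptors of macrophages, rose by log2 fold changes of 6.42, 6.88, 5.14 and 3.78, and Nlrp3, Nlrc4 and Aim2, sensors of inflammasomes, by 2.29, 5.78 and 3.40. Ddx58, Ifih1, Mavs, Cgas and Tmem173 (STING), of the pathways for cytosolic nucleic acids, were not called, at 0.56, -0.30, 0.57, -0.40 and -0.16. Of 10 endogenous ligands tested, Hspa1a and S100a8 (20%) were called higher, near the 14.2% of all genes tested. Of the 9 that reached the filter's cutoff in all WT libraries, 1 (11.1%) was called higher, against 11.0% of all such genes. Has2, a hyaluronan synthase, was called lower, as were 7.27% of all genes, and the list's median log2 fold change was -0.07. Has2 was not called without WT replicate 3 or in the test against 1.5-fold, and 1 gene of the list was called higher at 2-fold or in that test. Tnc and Fn1, matrix proteins that can engage Tlr4, had log2 fold changes of -0.45 and 0.45 and were not called. Hmgb1, a nuclear protein released by damaged cells, and the proteoglycans Bgn and Vcan were not called, at -0.20, 0.05 and -0.55.

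**Figure D4:**
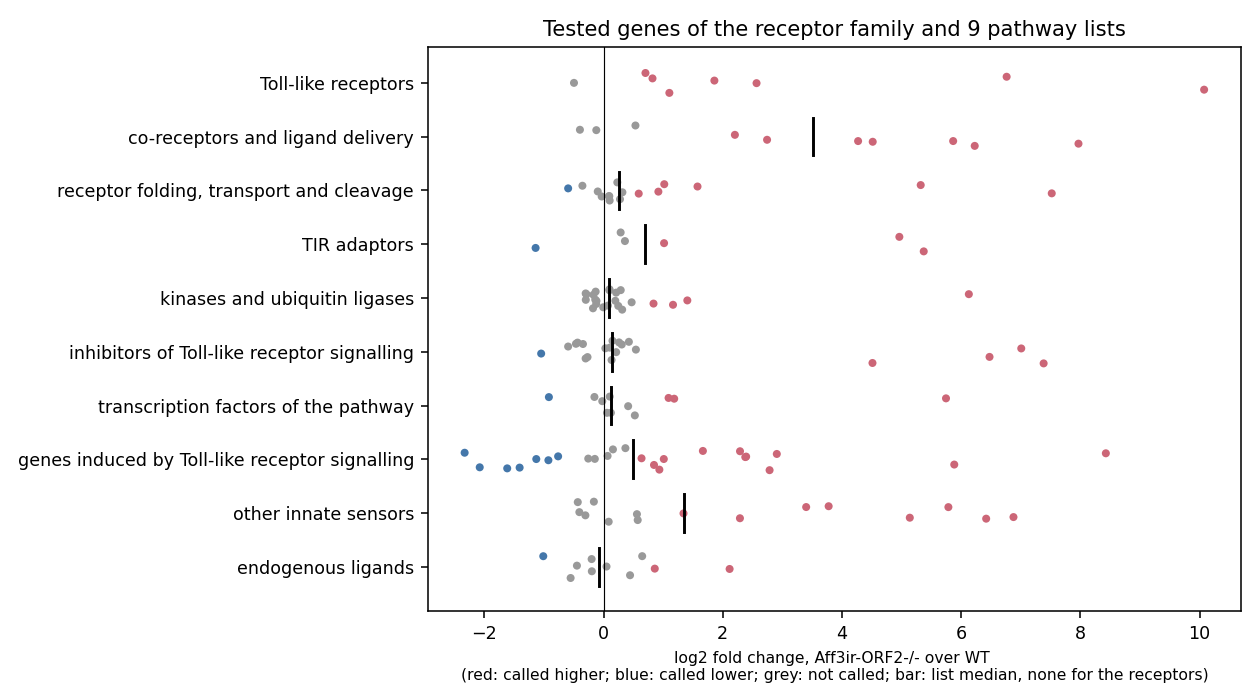
Log2 fold change of Aff3ir-ORF2-/- over WT (horizontal axis) for each tested gene of the receptor family and of the 9 lists, coloured by call, with a black bar at the median of each list. The co-receptors have a median of 3.51 with genes included that passed the filter only with the help of Aff3ir-ORF2-/- libraries, kinases and ubiquitin ligases cluster around 0 with a median of 0.10, and the induced genes spread to both sides. Values of genes at 0 counts in WT depend on a prior count.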

How the data were processed

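RNA was sequenced as paired-end reads on a DNBSEQ instrument, and the authors filtered reads with SOAPnuke v1.5.6. The submitters' processing notes name mm8, and the aligner, counter and annotation are not given in the sources used here. The labels name Trizol for the extraction and the methods the MagicPure Total RNA Kit. The authors deposited estimated counts per gene, of which 10.6% to 11.3% were non-whole in each library, and these were rounded. Estimation can divide reads between similar genes.

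Genes passing edgeR's filterByExpr (at least 10 counts, total 15) numbered 13075. Counts were scaled by TMM and tested with edgeR 4.0.16 in R 4.3.3 (quasi-likelihood F test, robust fit, 2-sided, 3 libraries of each genotype, no covariate). P-values were adjusted by Benjamini-Hochberg over all 13075 genes, and calls needed an adjusted p under 0.05 and at least 1.5-fold. DESeq2 1.42.0 and limma 3.58.1 were alternatives, with other scalings, filters, thresholds and each library left out. On simulated counts of this comparison, 200 of 200 genes changed 3-fold were called with 0 others among 13041 tested. Of genes changed 2-fold, 200 of 200 were called with 2 others among 13056. The changed genes were drawn only above a limit of total counts that Tlr1, Tlr5, Tlr6 and Tlr9 do not reach. Both genotypes were given the same spread, so the simulation covers neither low counts nor the wider spread of Aff3ir-ORF2-/- libraries.

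Symbols and RefSeq IDs matched for 10 of 10 members, and promoter windows (RefSeq, GRCm38.p6) for 8. Transcript lengths are the longest protein-coding transcripts of GENCODE. The members, gene lists and tests were chosen with earlier results of these data known. All 10 members are named, genes of each list were named by up to 6 lowest adjusted p and up to 3 highest counts, the others were chosen after their values were seen for their place in the pathway or their direction, and the genes nearest to Tlr4, the called receptor with the most Aff3ir-ORF2-/- counts, are the 5 at the smallest distance. The exact intervals of count ratios and the floors cover counting error only.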

Additional observations from a re-analysis of the deposited data

How the results depend on the processing

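No receptor of the 8 tested changed direction under any alternative run for it, 17 for Tlr8 and Tlr13 and 18 for each of the others. The number of receptors called higher was 7 with DESeq2, limma voom, other scalings and a non-robust fit (added after seeing the data), 9 without a filter on low counts, and 5 where every library had to hold at least 10 counts, which removes Tlr8 and Tlr13 from the test. It was 5 at 2-fold, where Tlr3 and Tlr4 were not called, 5 in a test against 1.5-fold, where Tlr3 and Tlr6 were not, and 6 to 7 with each library left out. The adjusted p of Tlr3 ranged from 0.0101 to 0.600 and that of Tlr5 from 0.0399 to 1, and Tlr5 was never called. Same-numbered libraries of the 2 genotypes deviated together with correlations of 0.0386, 0.0424 and 0.0145, each the best match of its number but too weak to take the numbers as pairs, and with the replicate block 7 receptors were called higher.

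With at least 10 counts in every library, calls higher were 3 instead of 7 for co-receptors, 1 instead of 3 for TIR adaptors, 0 instead of 4 for inhibitors, 6 instead of 12 for induced genes, 1 instead of 8 for other innate sensors and 1 instead of 2 for endogenous ligands, and calls lower were 0 instead of 1 for TIR adaptors and 4 instead of 7 for induced genes. This filter removes genes low in either genotype. For folding and transport, calls lower were 0 with upper quartile scaling, total counts, 2-fold or the test against 1.5-fold, and 0 to 1 with each library left out. For TIR adaptors, calls lower were 0 with DESeq2, limma voom or the test against 1.5-fold, and 0 to 1 with each library left out. For inhibitors, calls lower were 2 with limma voom or a non-robust fit, and 1 to 2 with each library left out. For transcription factors, calls lower were 0 at 2-fold. For induced genes, calls lower were 4 in the test against 1.5-fold. For endogenous ligands, calls higher were 1 at 2-fold or against 1.5-fold, and calls lower were 0 against 1.5-fold and 0 to 2 with each library left out. Beyond the low-count filter and thresholds, the cause was not tested. Depth limits Tlr1, Tlr6 and Tlr9, whose levels rest on at most 35 counts in any library.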
